A study of Mus musculus with 13 samples.

Results

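The Akr1c genes encode cytosolic aldo-keto reductases and lie side by side in a cluster on mouse chromosome 13. The set described here holds 8 of them (Akr1c6, Akr1c12, Akr1c13, Akr1c14, Akr1c18, Akr1c19, Akr1c20 and Akr1c21), taken as every probe set whose only gene symbol in the platform annotation is one of these names. This gave 9 probe sets for 7 genes, out of 17097 genes measured. No probe set carried Akr1c21 as its only symbol, so that gene has no value here. The family was chosen by the measured difference between the tumour groups, since Akr1c13 was among the genes with the largest increases on these same arrays. Differences of the members between the groups are therefore given as a description with no p-value, and the 1 count of members called by a test, set beside the share over all genes, supports nothing.

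The samples were squamous tumours raised on mouse back skin by painting with DMBA, a carcinogen, and TPA, which promotes tumour growth. Mice of both groups were 8 weeks old at the start and received 200 µl per application, with DMBA at 0.25 mg/ml and TPA at 0.02 mg/ml in acetone, weekly for 6 weeks and then TPA alone for at most 20 weeks. Of the 13 arrays, 6 were from G9a WT mice and 7 from G9a cKO mice, a conditional knockout of the histone methyltransferase G9a (gene Ehmt2), which methylates lysine 9 of histone H3. The labels do not say which promoter drives the recombinase or in which cells the gene was deleted. They also do not tie tumours to mice, and any p-value here measures only how these samples spread, which may in part be technical.

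Aldo-keto reductases reduce carbonyl groups or oxidise alcohols with NADPH or NADH as cofactor. Members of the Akr1c branch act at defined positions of steroid hormones, and related enzymes also reduce prostaglandins and carbonyls of foreign compounds. In the mouse the family is best known from liver, ovary and gut, and the paralogs differ in tissue and substrate although their sequences are alike.

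The promoter windows of Akr1c12 and Akr1c13 are shown because these genes had the large differences described next. That of Akr1c19 is shown because it lies between them and had no such difference, though it read at background in both groups. Each window runs from 250 bases before to 50 bases after the annotated start (RefSeq, GRCm38.p6), written 5′ to 3′ along the gene. In the Akr1c12 and Akr1c13 windows capitals mark bases within the aligned stretch that are substituted or extra relative to the other window, and the few unaligned bases at the ends stay in lower case. In the Akr1c19 window capitals mark the letters CATTAG.
Akr1c13, chr13:4190937-4191236, plus strand: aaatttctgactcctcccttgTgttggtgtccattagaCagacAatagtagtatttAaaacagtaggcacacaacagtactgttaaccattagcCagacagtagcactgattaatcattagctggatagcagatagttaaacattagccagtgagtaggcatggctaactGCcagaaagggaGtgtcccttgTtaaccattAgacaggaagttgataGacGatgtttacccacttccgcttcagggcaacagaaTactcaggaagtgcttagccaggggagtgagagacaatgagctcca
Akr1c12, chr13:4279350-4279649, minus strand: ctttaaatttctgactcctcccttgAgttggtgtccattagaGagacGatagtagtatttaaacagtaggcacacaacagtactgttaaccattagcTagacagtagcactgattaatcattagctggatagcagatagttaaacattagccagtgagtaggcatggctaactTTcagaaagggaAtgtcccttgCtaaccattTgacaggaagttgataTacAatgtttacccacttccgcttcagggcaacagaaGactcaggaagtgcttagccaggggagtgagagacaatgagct
Akr1c19, chr13:4233490-4233789, plus strand: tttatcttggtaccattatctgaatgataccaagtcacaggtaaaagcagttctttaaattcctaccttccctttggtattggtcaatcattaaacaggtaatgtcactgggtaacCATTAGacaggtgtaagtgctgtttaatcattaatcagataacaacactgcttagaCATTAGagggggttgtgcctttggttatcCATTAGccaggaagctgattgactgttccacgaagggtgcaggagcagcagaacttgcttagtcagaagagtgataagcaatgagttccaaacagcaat

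Aligned with free ends, the Akr1c12 and Akr1c13 windows shared 284 of 296 aligned bases, with 12 substitutions and 1 base of gap, an identity of 95.6% with gaps counted. The Akr1c19 window was 62.4% identical to that of Akr1c13 and 60.5% to that of Akr1c12. The other 18 pairs among the 7 members with a window (Akr1c20 has none here) lay between 51.3% and 58.7%, over alignments as short as 78 bases. The pair that differed most between the tumour groups is also the pair with near-identical promoter windows. A link between the windows and the differences was not tested, and 4 of the other members read at background in both groups, as given below. Akr1c13 and Akr1c12 are read from opposite strands and sit on either side of Akr1c19.

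**Figure D1:**
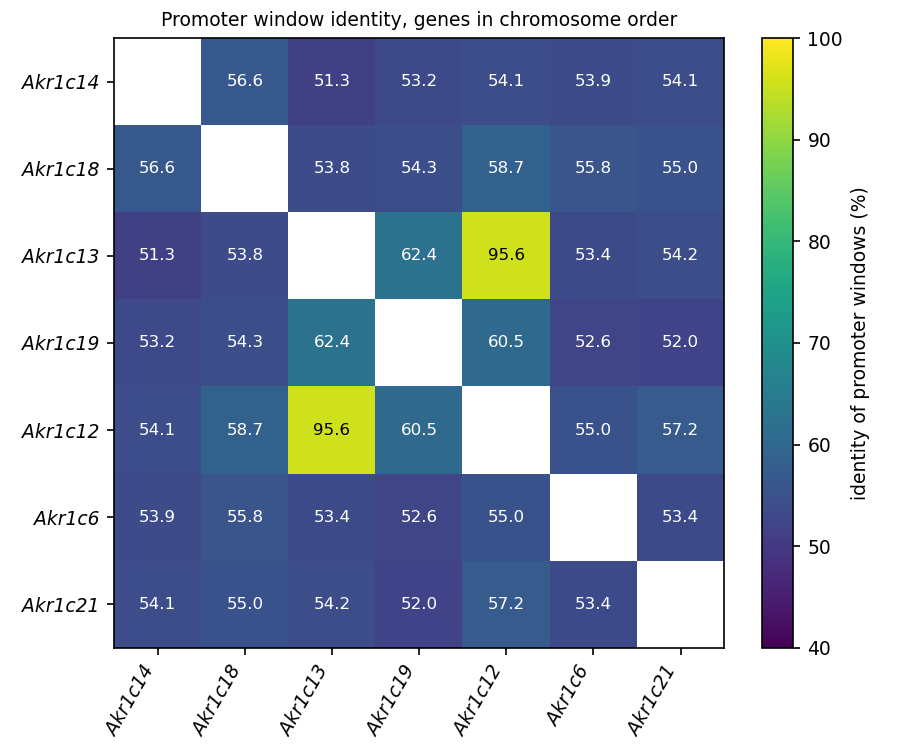
Percent identity of the 300-base promoter windows (RefSeq, GRCm38.p6) for each pair of the 7 Akr1c genes with a window, in chromosome order on both axes. The Akr1c12 and Akr1c13 pair stands at 95.6%, and all other pairs are at or below 62.4%.

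The windows of this pair also held a short repeat. The letters CATTAG, noticed in these sequences and counted on both strands, occurred 5 times in the Akr1c13 window, 4 times in that of Akr1c12 and 3 times in that of Akr1c19. They occurred once in the Akr1c6 and Akr1c21 windows and not in those of Akr1c14 and Akr1c18. Of 32851 promoter windows of the same length, 7.36% held the letters at least once, 9 windows held them at least 3 times and 3 at least 4 times. The 9 include the windows of Akr1c12, Akr1c13 and Akr1c19, and the 3 include those of Akr1c12 and Akr1c13. Since the letters were picked from these windows, nothing is read from how rare they are elsewhere. The letters TGANTCA (AP-1, both strands, 7.81% of all windows) were in none of the 7 windows. TGACNNNGC, the core of the antioxidant response element, was in the Akr1c19 window only (12.4% of all windows), and TATAAA in the Akr1c6 window only (13.6%). The first 3 letters of TGANTCA and TGACNNNGC are the same, so these could overlap. CpG dinucleotides were few, 2 each in the Akr1c12, Akr1c13 and Akr1c14 windows, 1 each in those of Akr1c19 and Akr1c21, 0 in that of Akr1c6 and 5 in that of Akr1c18, against a median of 7 over all windows. These are matches of letters in one window and say nothing about binding.

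Akr1c12 and Akr1c13 were far higher in cKO than in WT tumours, on every array and on each of their 3 probe sets. Both encode NAD-preferring enzymes that act on alicyclic alcohols and hydroxysteroids, and Akr1c12 was first known as a gene induced by interleukin-3 in myeloid cells. Akr1c13 read from 4.98 to 5.30, with a median of 5.14, on the log2 scale in 6 WT tumours, and from 7.96 to 8.19, with a median of 8.04, in 7 cKO tumours. The lowest cKO tumour thus lay above the highest WT tumour by many times the range within either group. The group means were 5.14 ± 0.12 (SD, n = 6) and 8.06 ± 0.09 (SD, n = 7), a difference of 2.92 (SE 0.058) or 7.58-fold.

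Akr1c12 had 2 probe sets. On the first, WT tumours read from 5.50 to 5.69 (median 5.60) and cKO tumours from 7.91 to 8.20 (median 8.16), a difference of 2.52 (SE 0.052) or 5.72-fold between means of 5.60 ± 0.08 (SD, n = 6) and 8.12 ± 0.10 (SD, n = 7). On the second, WT tumours read from 4.86 to 5.11 (median 4.95) and cKO tumours from 8.29 to 8.49 (median 8.38), a difference of 3.42 or 10.7-fold between means of 4.97 ± 0.12 (SD, n = 6) and 8.39 ± 0.06 (SD, n = 7). No WT tumour reached a cKO tumour on either probe set. The name of the second ends in s_at, the platform's mark for a probe set whose probes match more than 1 transcript, and the first serves as the value of the gene. Given how alike these paralogs are, signal of Akr1c12 and Akr1c13 may be shared between their probe sets, and the size of each gene's own difference cannot be told apart. Averaging both probe sets gave Akr1c12 a difference of 2.97.

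Markers of fibroblasts, the collagen-making cells of the stroma, differed between the same groups, most of them by less. Of 11, 7 rose and 0 fell, with a median difference of 0.57, and the list's mean level was 5.36 to 5.89 in WT and 6.27 to 6.73 in cKO tumours, without overlap. The 4 with the smallest p, the matrix genes Mfap5, Dpt, Dcn and Lum, rose by 0.54, 1.37, 1.10 and 0.83. The collagen genes Col1a1 and Col3a1, named here after their values were seen because only they reached the size of the Akr1c12 and Akr1c13 differences, rose by 2.93 and 3.22. A second Col3a1 probe set differed by 0.28, and the mean of both by 1.75. Col1a2 and Pdgfra were below the control level described next in both groups. Dpt and Lum were below it on every WT array, which leaves rises of at least 1.3-fold and 1.26-fold. "Rose" and "fell" are used here and below only of genes called by both limma fits, the second with a term for each pair of neighbouring arrays. Over all genes that second fit called 14.4% higher and 10.3% lower. The part of fibroblasts in the Akr1c12 and Akr1c13 differences was not tested.

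**Figure D2:**
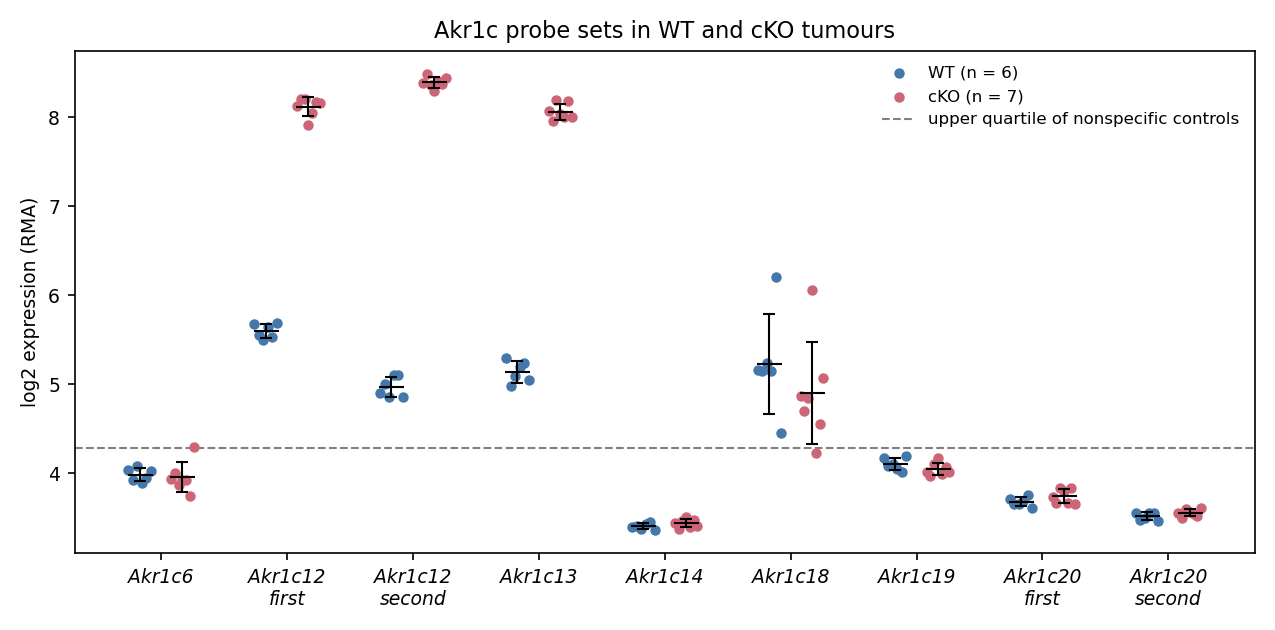
Log2 expression (y axis) of the 9 Akr1c probe sets (x axis) in WT (blue, n = 6) and cKO (red, n = 7) tumours, with a point for each array and the mean ± SD in black. The 3 probe sets of Akr1c12 and Akr1c13 lie at 5.69 or below in WT and at 7.91 or above in cKO tumours, and the 5 probe sets of Akr1c6, Akr1c14, Akr1c19 and Akr1c20 lie near or below the dashed line, the upper quartile of the nonspecific control probe sets.

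The WT levels of both genes were within the range of the array's background controls, though above their upper quartile. The 23 nonspecific control probe sets, spots that serve to gauge background, had means from 3.05 to 6.17 with an upper quartile of 4.29. Of these controls, 1 had a WT mean above that of Akr1c13 and of Akr1c12, and 0 had a cKO mean above the cKO level of Akr1c13. All WT arrays were above the upper quartile for these probe sets. The fold values are as measured, with no background taken off beyond that in RMA.

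By size, the difference of Akr1c13 ranked 10 and that of Akr1c12 ranked 17 among 17097 genes. Only 30 genes (0.175%) were over 4-fold higher in cKO tumours. In limma's test 2 of 7 measured members had an adjusted p under 0.05, both higher in cKO, where 25.7% of all genes were called higher, and 14.4% in a limma fit with a term for each pair of neighbouring arrays. The groups did not overlap on 3 of 9 member probe sets, all higher in cKO, where 14.1% of all genes were higher and 8.86% lower without overlap. Nothing is read from these counts, since the contrast was used to pick the family. The median difference was 0.04 over the 7 members and 0.02 over all genes. Of the 7 members, 4 had both group means below the control quartile, where a change below background would not show. The spread within groups was ordinary: the SD of Akr1c13 in cKO tumours was 0.09, against a median of 0.16 for 1860 genes within 0.5 log2 of its level, and in WT tumours it was 0.12 against 0.11 for 3428 genes.

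Akr1c18 behaved differently. It encodes 20-alpha-hydroxysteroid dehydrogenase, which inactivates progesterone and is best known from the ovary. It read from 4.45 to 6.20 (median 5.16) in WT tumours and from 4.23 to 6.06 (median 4.85) in cKO tumours, and the groups overlapped almost fully. The means were 5.23 ± 0.56 (SD, n = 6) and 4.91 ± 0.57 (SD, n = 7), and the difference of -0.32 (SE 0.29) was smaller than the SD within either group. What set this gene apart was its spread. Of the 3310 genes within 0.5 log2 of its WT level, 97.7% had a smaller SD in WT tumours, and of the 3769 near its cKO level, 99.2% had a smaller SD in cKO tumours.

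That spread came from few arrays. WT replicate 8 read 6.20 and WT replicate 9 read 4.45, while the other 4 WT arrays lay between 5.15 and 5.24. In cKO tumours replicate 5 read 6.06 and replicate 6 read 4.23, with the other 5 arrays between 4.55 and 5.07. High and low arrays sat beside each other in the deposit, and their pair means, 5.33 for WT replicates 8 and 9 and 5.14 for cKO replicates 5 and 6, were close to the group means. Such mirroring runs through the whole table: deviations from the group mean of neighbouring arrays correlated over genes at -0.956 to -0.88 in 6 pairs (WT 2 with 4, 6 with 7, 8 with 9; cKO 2 with 3, 5 with 6, 8 with 9). The labels mention no step that would do this. The arrays are therefore not independent of each other, and the spread between tumours is not fully captured by an SD or a p-value here. For Akr1c13 the pair means were 5.14 to 5.15 in WT and 8.02 to 8.09 in cKO tumours, and for the first Akr1c12 probe set 5.57 to 5.62 and 7.98 to 8.20. Their difference between the groups was many times the range within any pair, which reached 0.32 for Akr1c13 and 0.16 for Akr1c12.

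**Figure D3:**
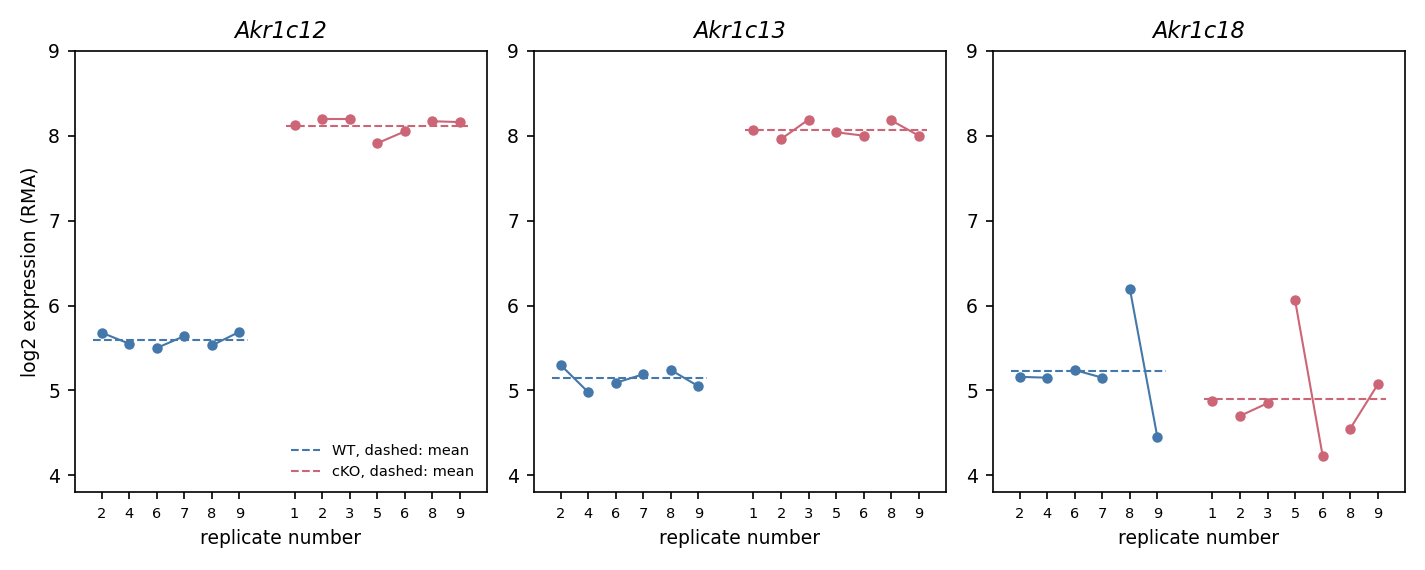
Log2 expression (y axis) of Akr1c12 (first probe set), Akr1c13 and Akr1c18 on each array, by replicate number (x axis), in WT (blue) and cKO (red) tumours, with neighbouring arrays of a mirrored pair joined and group means dashed. Akr1c12 and Akr1c13 stay near 1 level per group, whereas Akr1c18 spans 4.45 to 6.20 in WT and 4.23 to 6.06 in cKO tumours, with the extremes within 1 pair of each group.

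The remaining members were at background in both groups. Akr1c6, the mouse 17-beta-hydroxysteroid dehydrogenase type 5, read 3.98 ± 0.08 (SD, n = 6) in WT and 3.96 ± 0.17 (SD, n = 7) in cKO tumours. Akr1c14, a 3-alpha-hydroxysteroid dehydrogenase, read from 3.36 to 3.45 in WT and from 3.38 to 3.51 in cKO tumours. Akr1c19 read from 4.02 to 4.19 and from 3.97 to 4.17. The first Akr1c20 probe set read from 3.61 to 3.76 and from 3.66 to 3.83, and the second from 3.47 to 3.56 and from 3.50 to 3.61. The groups overlapped on all 5 of these probe sets, and their group means, between 3.41 and 4.10, were all below 4.29. With both groups below that level no fold is given. The highest single value was 4.30, for Akr1c6 in cKO replicate 9. A change of these genes below the array's background would not have been detectable.

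Over the whole cluster, in chromosome order, the members were Akr1c14, Akr1c18, Akr1c13, Akr1c19, Akr1c12, Akr1c6, Akr1c20 and Akr1c21. The large differences were thus at the positions on either side of Akr1c19. That gene differed by -0.057 (SE 0.041) at means of 4.10 in WT and 4.05 in cKO tumours, below the control quartile of 4.29. The genes around the cluster were not used to choose the family and were tested. Of the 6 nearest measured genes on each side, 2 were higher and 2 lower in cKO tumours (limma, adjusted p under 0.05), where 45.8% of all genes were called. With the pair term 1 was higher and 1 lower, where 24.7% of all genes were called.

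On the side after the cluster, the nearest gene was Akr1e1, an aldo-keto reductase of another branch. It read 8.80 ± 0.18 (SD, n = 6) in WT and 9.17 ± 0.19 (SD, n = 7) in cKO tumours, a difference of 0.37 (limma adjusted p = 0.00752, and 0.0642 with the pair term). Farther out, Pitrm1, a mitochondrial peptidase gene, fell by 0.91 (limma adjusted p = 1.46e-05). Klf6, Pfkp, Adarb2 and Wdr37 differed by -0.035, 0.36, 0.047 and -0.21 on the probe sets read and did not pass there. On the side before the cluster, Ucn3, Net1, Calm4 and Calml3 differed by 0.07, 0.013, 0.39 and 0.003 and did not pass. Asb13, a substrate adaptor of ubiquitin ligases, rose from 4.67 ± 0.13 to 5.06 ± 0.14 (limma adjusted p = 0.000882), and Tasor2 differed by -0.36 (limma adjusted p = 0.0241, and 0.12 with the pair term). With every probe set tested on its own, others of these genes passed, namely 2 of Wdr37 (differences of 0.39 and 0.12), 1 of Klf6 (-0.32) and 1 of Adarb2 (-0.10), so Wdr37 and Adarb2 differ in sign between probe sets. No neighbour had a difference above 0.91 in size.

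**Figure D4:**
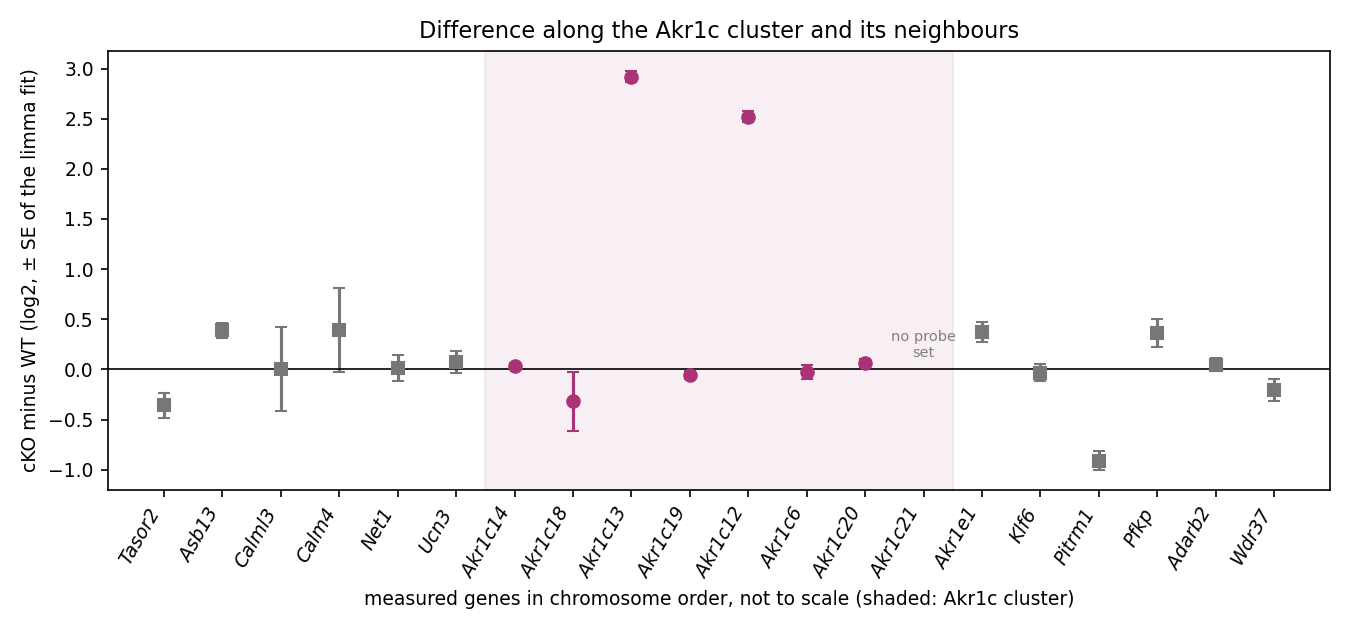
Difference between cKO and WT means (log2, y axis, ± SE of the limma fit) for the Akr1c genes (circles, shaded) and the 6 nearest measured genes on each side (squares), in chromosome order and not to scale. Akr1c13 at 2.92 and Akr1c12 at 2.52 stand alone, with Akr1c19 between them at -0.057, and the neighbours lie between -0.91 and 0.39.

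Aldo-keto reductases outside the cluster showed small differences. Of 10 measured, 2 were higher and 2 lower, with a median of -0.042 against 0.02 over all genes, and with the pair term 1 was higher. The shares over all genes, for this list and those below, were 25.7% higher and 20.1% lower. With the pair term they were 14.4% and 10.3%. Akr1a1, the aldehyde reductase, read 11.43 ± 0.04 in WT and 11.30 ± 0.04 in cKO tumours (SD, n = 6 and 7), and lost its call with the pair term (limma adjusted p = 0.00219 and 0.0567). The aldose reductase-like gene Akr1b10 had a difference of -0.35 on the probe set read (limma adjusted p = 0.00701, and 0.052 with the pair term) and of 0.24 and 0.076 on others. Akr1b8, another aldose reductase-like gene, differed by -0.29, and Akr7a5, an aflatoxin aldehyde reductase, by -0.078, and neither passed. Akr1cl, an Akr1c-like gene on another chromosome, rose from 3.96 to 4.10, both below 4.29. Akr1d1, the steroid 5-beta-reductase, differed by 0.14 at means below 4.29. The potassium channel beta subunits of this superfamily, Kcnab1, Kcnab2 and Kcnab3, differed by -0.07, 0.31 and -0.013 and did not pass, while another probe set of Kcnab1 (-0.11) and of Kcnab3 (0.23) passed when tested on its own.

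Enzymes that make or inactivate steroid hormones went both ways. Of 27 measured, 5 were higher and 2 lower, and 2 and 2 with the pair term, with a median of 0.039. Hsd17b1, which makes estradiol, fell from 4.76 ± 0.04 to 4.50 ± 0.05 (SD, n = 6 and 7). Hsd17b13, a lipid droplet protein, fell by 0.41 on the probe set read, while another differed by 0.20 in the opposite direction. Hsd3b6, a 3-beta-hydroxysteroid dehydrogenase, rose from 6.49 ± 0.14 to 6.82 ± 0.07. Cyp11a1, which starts steroid synthesis from cholesterol, rose by 0.16 at means of 4.00 and 4.16, below the control quartile. The list had 8 genes below that level on all arrays. Of the 5 called higher, only Hsd3b6 had group means above it.

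Among 7 measured steroid receptors, 1 was higher and 1 lower with either fit. Esr1, estrogen receptor alpha, rose from 5.30 ± 0.45 to 6.58 ± 0.39 (SD, n = 6 and 7), 2.43-fold (limma adjusted p = 0.000453). Pgrmc1, a progesterone-binding membrane protein, fell by 0.36 (limma adjusted p = 0.00391). After quantile normalization Pgrmc1 lost its call. The glucocorticoid receptor Nr3c1 differed by -0.33 (limma adjusted p = 0.109). Pgr, the nuclear receptor for the hormone that Akr1c18 inactivates, read 4.27 in WT and 4.19 in cKO tumours, both below the control quartile of 4.29. Other Pgr probe sets, also below it, differed by 0.049 and by 0.10, the latter passing when tested on its own.

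Genes of prostaglandin synthesis and turnover were lower where they differed on the probe sets read. Of 15 measured, 0 were higher and 7 lower, and 0 and 2 with the pair term, with a median of -0.17. Over all genes 20.1% were called lower, and 10.3% with the pair term. Ptgs2, the inducible cyclooxygenase, fell from 10.08 ± 0.30 to 8.83 ± 0.23 (SD, n = 6 and 7), 2.37-fold (limma adjusted p = 2.01e-05), and by 0.54 on its other probe set. Ptges3 fell by 0.15, and lost its call after quantile normalization. Hpgd, which inactivates prostaglandins, differed by -0.53, and Ptgfr, the receptor of prostaglandin F2-alpha, by -0.13, both at means below 4.29 and called without the pair term only. Tested on their own, other Ptgfr probe sets passed at -0.25, at -0.11 and, in the opposite direction, at 0.13.

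The response genes of Nrf2, a regulator under which several aldo-keto reductases are known to be induced, were more often lower than higher. Of 27 measured, 2 were higher and 9 lower, and 0 and 5 with the pair term, with a median of -0.27. The list also holds the gene of Nrf2 itself, which is among the 5 lower with the pair term. Over all genes 25.7% were called higher and 20.1% lower, and 14.4% and 10.3% with the pair term. Ugdh, which makes UDP-glucuronic acid, fell from 8.24 ± 0.16 to 7.38 ± 0.12 (SD, n = 6 and 7; limma adjusted p = 2.96e-06). The transketolase gene Tkt fell by 0.57 on the probe set read and differed by 0.15 on another. Txnrd1 and Txn1, thioredoxin reductase and thioredoxin, fell by 0.34 and 0.22. Among 25 other enzymes of aldehydes and carbonyls, 3 were higher and 6 lower, and 1 and 4 with the pair term. Dhrs1 rose by 0.63, while the retinol dehydrogenase gene Rdh10, the carbonyl reductase gene Cbr4 and the retinaldehyde dehydrogenase gene Aldh1a2 fell by 0.65, 0.43 and 0.25.

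**Figure D5:**
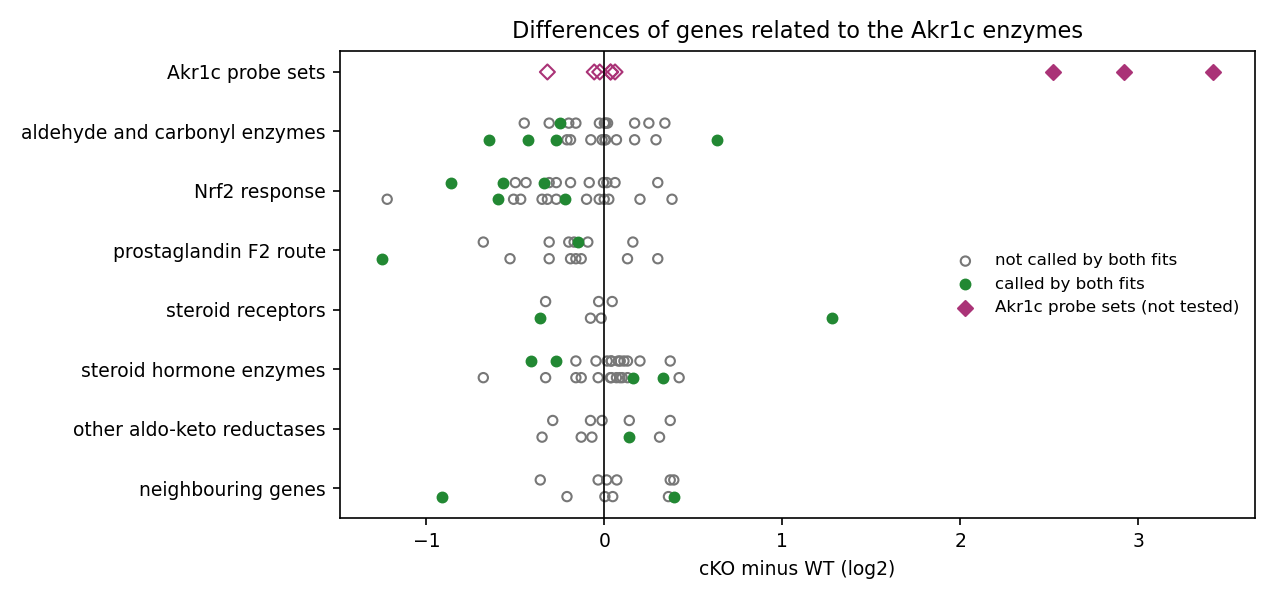
Difference between cKO and WT means (log2, x axis) for each measured gene of 7 lists (rows, a point per gene; filled green where both limma fits called it) and for the 9 Akr1c probe sets (diamonds, not tested; filled where the groups do not overlap). The listed genes lie between -1.25 and 1.28, and the 3 filled Akr1c probe sets at 2.52, 2.92 and 3.42.

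The genes whose 13 values were most like those of the second Akr1c12 probe set, the member probe set of largest SD, were Gadl1, Ppara, Gkn1, Gk2 and Cdh4, with Pearson's r from 0.994 to 0.998. This likeness is set by the difference between the groups, and these genes were low and even in WT tumours (SD 0.01 to 0.02) and higher in cKO tumours. Their WT means, from 2.73 for Gadl1 to 4.18 for Ppara, were all below the control quartile of 4.29. The even WT values thus have no measured lower level. As measured, the differences ran from 0.50 for Ppara, a nuclear receptor of fatty acid metabolism, to 3.29 for Gadl1. Gkn1, a secreted protein of the stomach lining, read 2.80 in WT and 5.24 in cKO tumours. Over deviations from the group means the closest genes were Pdzd4, Gpx2, Zfp638, Wfdc5 and Ift27, with r from 0.918 to 0.942 over 13 arrays that mirror each other. Within groups, the deviations of Akr1c13 had an r of 0.25 with the first Akr1c12 probe set and of 0.01 with the second. The first and second Akr1c12 probe sets, assigned to the same gene, had an r of only 0.18 with each other. These values therefore cannot tell whether Akr1c12 and Akr1c13 vary together within groups. For Akr1c18 the closest genes over such deviations were Atp12a (r = 0.979), Slc38a5, 2310011E23Rik, Zfp597 and Bpifa2. That list was added after the spread of Akr1c18 had been seen, and its r values rest mainly on the few arrays that made that spread. The means of Slc38a5 and Bpifa2 in both groups, and of Atp12a in cKO tumours, were below 4.29.

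Tumours hold several cell types, and in bulk RNA fewer cells of a type and less RNA per cell cannot be told apart. Of 10 T and NK cell markers 4 rose and 1 fell (mean level 4.80 to 4.93 in WT and 5.03 to 5.14 in cKO tumours). Thy1, which fibroblasts also carry, rose by 1.42, Klrk1 by 0.37 and Cd3g by 0.35, and Cd3d fell by 0.25. Of 12 mast cell and basophil markers 6 were higher and 1 lower, and 3 and 0 with the pair term (4.64 to 4.70 and 4.71 to 4.80), with 5 below the control quartile on all arrays, among them Kit at 3.40 and 3.75. Their part in the Akr1c differences was not tested. The mean levels of macrophage markers (4.61 to 4.74 and 4.66 to 5.28; 3 of 11 higher and 1 lower, 2 and 0 with the pair term), adipocyte markers (2 of 5 higher and 1 lower, 1 and 1 with the pair term), basal keratinocyte markers (1 of 7 higher and 1 lower, 1 and 0 with the pair term), suprabasal keratinocyte markers (1 of 7 higher, 0 with the pair term) and sebaceous markers (1 of 5 higher with either fit) overlapped between the groups. The defining basal markers Krt5 and Krt14 read 12.62 and 12.35 in WT and 12.75 and 12.23 in cKO tumours, so keratinocyte transcripts were abundant in both groups.

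The targeted gene Ehmt2 differed on 1 of its 2 probe sets, which read 8.03 to 8.61 in WT and 5.87 to 6.12 in cKO tumours (two-sided exact permutation p = 0.000583). The other read 7.03 to 7.53 and 7.36 to 7.49 (exact permutation p = 0.131). Which of them, if any, lies within the deletion is not known here. Array medians lay between 5.093 and 5.139, and nonspecific controls differed between the groups by -0.307 to 0.082. The 18 hybridisation controls, added in equal amounts to each array, were higher in cKO arrays by 0.057 to 0.493. Differences of these sizes are not set apart from those of controls, and those of Akr1c12 and Akr1c13 are far larger.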

How the data were processed

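Total RNA of 13 tumours was measured on arrays, with 25 ng of RNA amplified over 17 cycles, per the labels' protocols. The authors deposited 1 log2 value for each probe set and array. RMA, which corrects background, normalizes by quantiles and summarises probes, is named per the submitters' processing notes, with its version and further steps not stated there. Of 45141 probe sets, 28898 have 1 gene symbol, 551 several, 15588 none and 104 are array controls; 28689 matched the RefSeq gene table (GRCm38.p6) by gene number. That table gave names and gene order only. Promoter windows are from RefSeq on the same build and were aligned with Biopython 1.88 (match 1, free ends).

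Groups came from sample titles. A gene took the value of its brightest probe set on average, with no filter on dim probe sets; members were read by every probe set. The fit used lmFit and eBayes of limma 3.58.1 (R 4.3.3; cKO minus WT, two-sided), with Benjamini-Hochberg adjustment over 17097 genes and a threshold of 0.05. A second fit, known from earlier work on these data, added a term for each neighbouring pair. The script was tested on simulated data. The members, gene lists and the CATTAG count were chosen with earlier results of these data known. Named genes were the members, Ehmt2, all other aldo-keto reductases, the 6 nearest measured genes on each side, up to 4 genes per list by smallest p, and the 5 genes most like a member; the collagens were added after their values were seen. Same-numbered WT and cKO arrays did not deviate together (correlations -0.298 to 0.049), so the numbers pair nothing. The number of arrays limits the precision. Alternatives were median centring, quantile normalization, the pair term, the replicate number as a block, another prior, a filter at the 25th percentile, other ways of reading genes with several probe sets, group medians for the members, and each array left out.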

Additional observations from a re-analysis of the deposited data

Results flagged for a closer look

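No Akr1c probe set had an array that stood apart from its group by Dixon's criterion at the 95% level. Among the other named genes, 9 of 154 sets of arrays (5.84%) held such an array. Chance gives about 1 in 20 for independent arrays, which these are not. The WT array was replicate 8 for Col1a1 (7.77, the nearest other array at 6.18), which is also the array with the highest Akr1c18 value. The rest were cKO arrays: Akr1d1 in replicate 9 (4.81, the nearest other array at 4.14), Akr7a5 in replicate 5 (7.75 against 7.85), Cd14 and Dpt in replicate 6 (5.33 against 4.86 and 5.27 against 4.75), Cyp11a1 and Tkt in replicate 2 (4.12 against 4.16 and 10.51 against 10.34), Kit in replicate 1 (3.82 against 3.75) and Klf6 in replicate 8 (11.40 against 11.78).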

How the results depend on the processing

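The differences of Akr1c12 and Akr1c13 kept their direction under every alternative run. That of Akr1c13 lay between 2.87 and 2.98, and between 2.89 and 2.95 with each array left out. The Akr1c12 difference on its first probe set lay between 2.50 and 2.55 with each array left out, at 2.56 by group medians and 2.59 after quantile normalization, and at 2.97 as the mean of both probe sets, and that of the second between 3.40 and 3.50. Akr1c18 differed by -0.63 to -0.30 under other settings and by -0.51 to -0.13 with each array left out. Counts of called genes fell with the pair term, to 4228 of all genes, 2 neighbours, 1 other aldo-keto reductase, 4 steroid enzymes, 2 prostaglandin, 5 Nrf2 and 5 carbonyl enzyme genes. With the replicate number as a block, which rests on the 4 numbers that both groups share, they were 3055, 2, 0, 2, 1, 5 and 5, with 1 steroid receptor. Quantile normalization left 1 steroid receptor and 4 prostaglandin genes, and the filter on dim genes 3 steroid enzymes. Of 75 named genes outside the family, 42 kept their side of the threshold throughout, of which 8 changed sign under some alternative, all uncalled, and no called gene changed sign. Genes under the control quartile have no measured lower level.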
